A study of Rattus norvegicus with 54 samples.

Results

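The genes described here form the interferon response, followed through late gestation and the first days of life in the liver and the skeletal muscle of Wistar rats. The list held 46 genes, chosen by their values in these same arrays near the last foetal day (F22), so that every contrast with F22 arrays is given as a description and without a test. Of the 46 genes, 43 had a probe set with a single gene symbol in the platform annotation, 1 each, out of 15310 such probe sets for 14506 genes. *Nlrc5*, *Parp14* and *Xaf1* had none there and were not analysed here. Each sample of total RNA was read on 1 GeneChip array (Rat Gene 1.0 ST), and the authors deposited log2 values after robust multi-array average (RMA). In liver there were 24 arrays, 4 each at foetal days 16 (F16), 20 (F20) and 22 (F22), at postnatal days 1 (P1) and 4 (P4), and from adult rats (P90). In muscle there were 30 arrays, 5 each at F16, F18, F20, F22, P1 and P4. All animals were of the Wistar strain, the sources name no treatment or altered gene, and foetuses were taken by Caesarean section from mothers that had been killed. The sex of the animals and whether the foetuses of a group shared a litter are details that the sources leave out.

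Interferons are secreted proteins that bind receptors on the cell surface and, through JAK kinases, activate STAT transcription factors. Type I interferon acts on its target genes through the interferon-stimulated response element (ISRE) in their promoters, to which a complex with STAT2 and IRF9 binds, and interferon gamma acts mainly through the gamma-activated sequence (GAS). The target genes code for sensors of foreign nucleic acid, for proteins that block viral replication, for GTPases that act on compartments holding microbes, for the machinery that loads peptides onto MHC class I molecules and for chemokines that call in lymphocytes. The liver of the foetus is also a blood-forming organ, and holds macrophages and maturing granulocytes beside hepatocytes.

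The ISRE was looked for in RefSeq promoter windows of the GRCr8 assembly, 250 bases before to 50 bases after the start of each gene, of which 33 of the 43 genes had 1. The core GAAANNGAAA, on either strand and with overlapping matches allowed, was in 22 of these 33 windows (66.7%) and in 3.92% of all 33469 windows in the table. The GAS core TTCNNNGAA was in 11 of 33 (33.3%) and in 8.87% of all windows. By role, the ISRE core was in 6 of 7 windows of nucleic acid sensors, 6 of 9 of antiviral effectors, 4 of 5 of the GTPases, 4 of 5 of antigen processing, 1 of 3 of the chemokines and 1 of 4 of signalling genes. A match describes these letters and is no evidence of binding. The windows of 5 genes follow to make the element visible, namely those with a match that had the highest F22 minus F20 difference in liver. Each is read along the strand of the gene, with every ISRE core in capitals, and TTTCNNTTTC is the same core on the other strand.
*Oas1a*, chr12:41330216-41330515, plus strand: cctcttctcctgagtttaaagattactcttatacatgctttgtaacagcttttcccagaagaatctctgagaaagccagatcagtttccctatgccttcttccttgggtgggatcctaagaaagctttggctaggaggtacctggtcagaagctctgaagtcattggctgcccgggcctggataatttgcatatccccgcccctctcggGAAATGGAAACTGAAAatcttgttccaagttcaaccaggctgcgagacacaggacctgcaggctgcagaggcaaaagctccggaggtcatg
*Oas1b*, chr12:41395803-41396102, minus strand: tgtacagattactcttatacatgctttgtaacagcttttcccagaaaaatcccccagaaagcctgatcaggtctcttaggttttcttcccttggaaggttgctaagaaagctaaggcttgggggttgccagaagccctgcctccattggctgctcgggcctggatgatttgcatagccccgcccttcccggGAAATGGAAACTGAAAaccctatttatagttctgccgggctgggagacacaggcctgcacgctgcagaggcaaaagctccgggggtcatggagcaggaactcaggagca
*Ifi27*, chr6:128355062-128355361, plus strand: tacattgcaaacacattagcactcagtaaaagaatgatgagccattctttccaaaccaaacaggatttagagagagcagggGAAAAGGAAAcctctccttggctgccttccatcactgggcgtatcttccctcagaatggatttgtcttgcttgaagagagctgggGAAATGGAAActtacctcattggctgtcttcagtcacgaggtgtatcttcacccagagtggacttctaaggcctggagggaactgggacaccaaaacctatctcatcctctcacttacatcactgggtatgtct
*Ifi44*, chr2:243303791-243304090, minus strand: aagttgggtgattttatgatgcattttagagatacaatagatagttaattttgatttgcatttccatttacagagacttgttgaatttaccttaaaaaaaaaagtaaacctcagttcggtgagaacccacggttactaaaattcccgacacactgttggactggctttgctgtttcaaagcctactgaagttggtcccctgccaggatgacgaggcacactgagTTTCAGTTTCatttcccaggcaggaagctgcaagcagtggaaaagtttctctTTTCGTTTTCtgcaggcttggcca
*Oasl2*, chr12:47383136-47383435, minus strand: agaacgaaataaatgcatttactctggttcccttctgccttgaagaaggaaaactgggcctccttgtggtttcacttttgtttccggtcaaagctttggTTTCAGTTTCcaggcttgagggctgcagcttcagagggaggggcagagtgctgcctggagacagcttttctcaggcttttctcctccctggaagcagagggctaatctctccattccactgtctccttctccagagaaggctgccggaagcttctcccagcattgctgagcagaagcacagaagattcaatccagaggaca
In *Oas1a* and *Oas1b*, neighbours on chromosome 12 that code for related enzymes, 2 overlapping cores form 1 run that starts at -41 and -59 relative to the first base of the gene. *Ifi27* had 2 separate cores at -169 and -84, *Ifi44* had cores at -26 and 26, and *Oasl2* had 1 core at -151. *Usp18*, *Isg15* and *Mx2*, which are prominent in the values below, had no window in the table.

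Liver arrays carried the defining hepatocyte transcripts, with a mean log2 value of 11.5 to 13.1 for the 12 hepatocyte markers over the time points, and muscle arrays those of skeletal muscle (10.2 to 12.3 for 10 markers). Liver and muscle had been normalised apart, so that levels are compared only within a tissue and, for each gene, only with itself. The median over all probe sets was 7.06 to 7.16 on the liver arrays and 7.98 to 8.07 on the muscle arrays. Transcripts of neighbouring tissues were present. Skeletal muscle markers reached a mean of 8.67 on liver F22 replicate 1. Hepatocyte markers reached 8.88 on muscle P4 replicate 3, 8.81 on F18 replicate 4, 8.57 on F20 replicate 5 and 8.31 on F22 replicate 2. Keratinocyte markers were more than a trace in muscle. They averaged 9.67 at F16, 11.9 at F18 and 12.5 at F22, where the skeletal muscle markers averaged 12.2. The muscle arrays thus also carried keratinocyte transcripts, whose part in the muscle values was not tested. In muscle 4 arrays (F16 replicate 5, F20 replicates 4 and 5 and F22 replicate 5) had the lowest mean r with the other arrays of their groups, 0.9881 to 0.9928. Only F22 replicate 5 (0.9881) was clearly apart. F20 replicate 4 had 0.9915 and F16 replicate 5 0.9928, close to P4 replicate 3 at 0.9930, so that the cut at 4 arrays is arbitrary. In liver the P1 arrays were the least alike, down to a mean r of 0.9831 for replicate 1. The results below are given with and without the arrays on which they rest.

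Between F20 and F22 in liver, 41 of the 43 genes had a higher mean, and in 37 the 4 F22 arrays all lay above the 4 F20 arrays. The background for such a separation was 16.3% of all probe sets higher at F22 and 23.1% lower, and none of the 43 genes was separated downwards. The median difference of the 43 was 1.13 on the log2 scale, against -0.02 over all probe sets, and without F22 replicate 3 it was 0.84 with 37 genes still separated. As these values chose the list, nothing is read from them beyond their size and their order. In bulk tissue fewer cells of a type and less RNA per cell cannot be told apart, and the markers of macrophages (12 of 12, median 0.75) and of granulocytes (10 of 10, median 1.68) were also higher on all F22 arrays than on all F20 arrays, while 9 of 10 erythroid markers were lower (-0.53). Endothelial markers (8 of 8, median 0.42) and hepatocyte markers (11 of 12, 0.25) were separated upwards as well. Of the dividing cell markers 8 of 9 were separated downwards (-0.47). The part of these lists in the values of the interferon response genes was not tested.

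**Figure D1:**
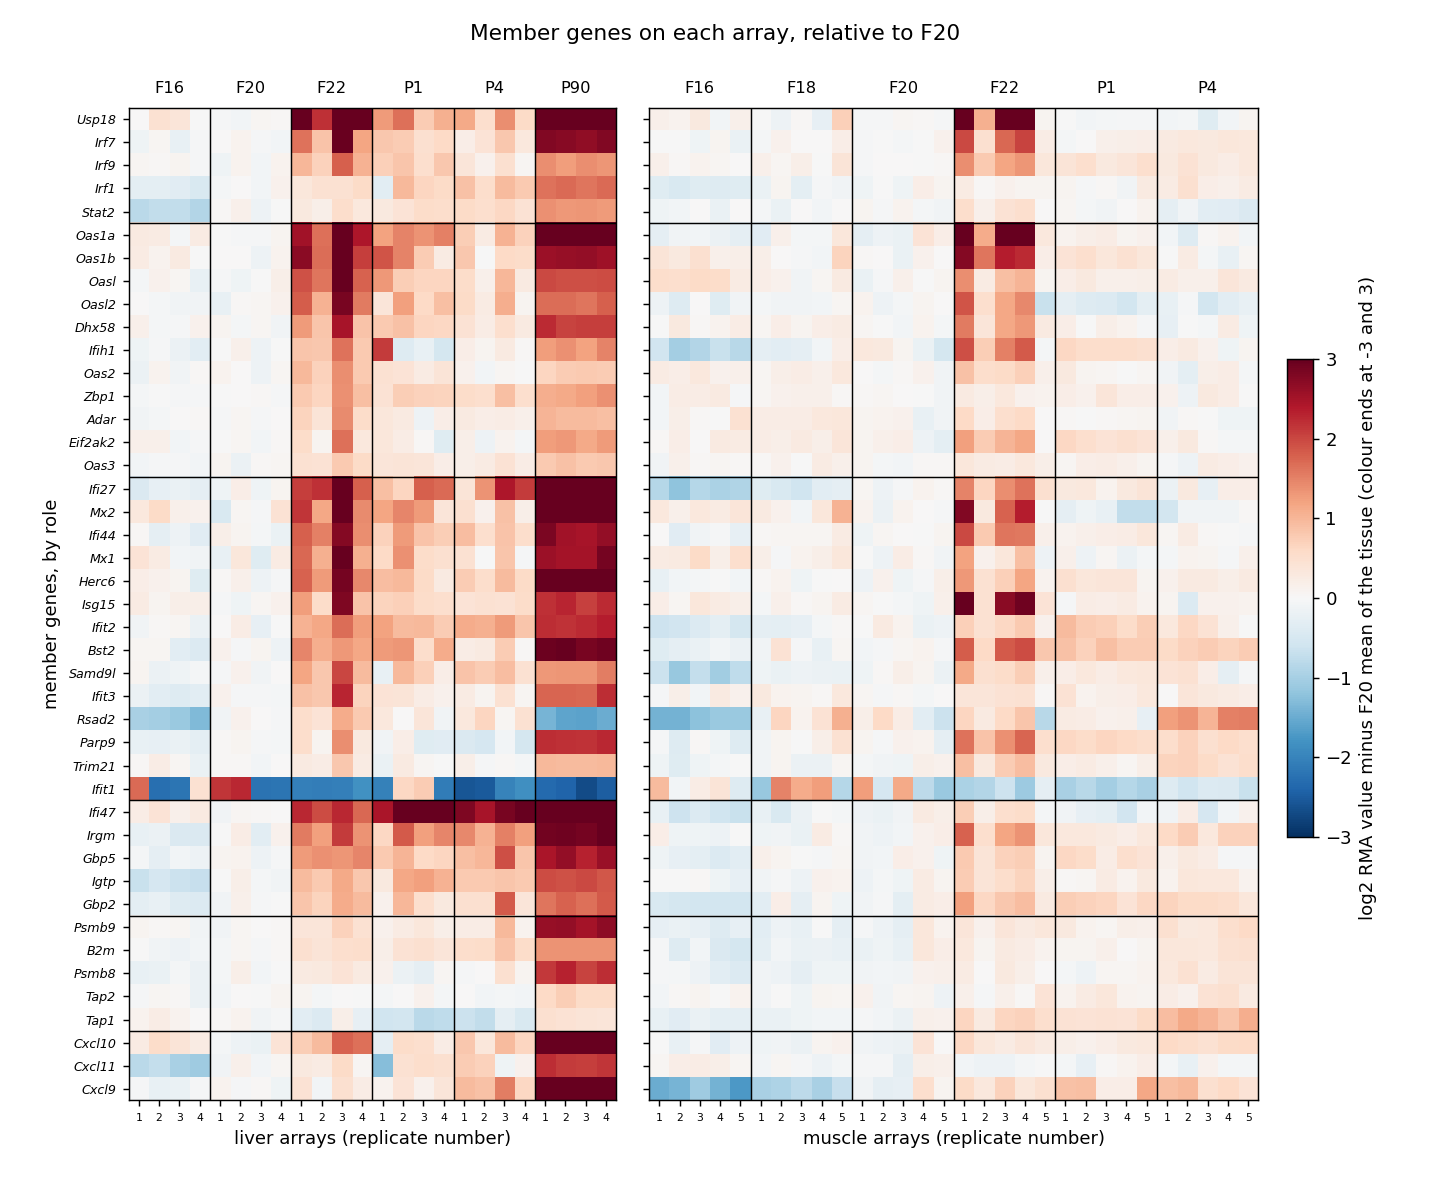
Heat map of the 43 measured genes (rows, grouped by role and ordered by the liver F22 minus F20 difference) on each of 24 liver and 30 muscle arrays (columns, by time point and replicate). Colour is the log2 RMA value minus the mean of the F20 arrays of the tissue, ending at -3 and 3. The F22 columns differ among themselves, with liver replicate 3 the darkest red and muscle replicates 2 and 5 pale, and the 4 adult liver columns are alike.

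The signalling genes were led by *Usp18*, a protease that strips ISG15 from its targets and restrains the type I interferon receptor. On the liver arrays *Usp18* read 5.35 to 5.82 at F16 and 5.29 to 5.42 at F20. At F22 it read 8.64, 7.54, 10.4 and 8.35 on replicates 1 to 4. No F22 array overlapped with F20, the mean difference was 3.37 (10.3-fold), and replicate 3 was the highest and replicate 2 the lowest. *Irf7*, the transcription factor that amplifies the production of type I interferon, read 6.62 to 6.81 at F20 and 8.33, 7.57, 9.66 and 7.89 at F22. *Irf9*, the DNA-binding part of the STAT complex, was 1.13 higher at F22 and *Stat2*, its partner, 0.32. *Irf1*, which answers mainly to interferon gamma, was 0.46 higher, with an SD between F22 arrays of only 0.09. All 5 signalling genes were separated between F20 and F22.

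All 11 sensors and related enzymes were separated in the same way, with differences from 0.56 (*Oas3*) to 2.75 (*Oas1a*). The oligoadenylate synthetases make a messenger that switches on RNase L upon contact with double-stranded RNA. *Oas1a* read 6.16 to 6.28 at F20 and 8.72, 7.86, 10.6 and 8.62 at F22. *Oas1b* read 5.03 to 5.28 at F20 and 7.88, 6.86, 9.42 and 7.26 at F22, and *Oasl*, a relative without the synthetase activity in some species, 6.79 to 7.11 and then 8.84, 8.53, 10.3 and 8.70. In each of the 3 genes replicate 3 was the highest array and replicate 2 the lowest. Since *Oas1a* and *Oas1b* are close copies, the probes of one may read the other, and the 2 values are not certain to be independent. *Ifih1*, the sensor MDA5, was 1.01 higher at F22, *Dhx58*, its regulator LGP2, 1.36, and *Eif2ak2*, the kinase PKR that halts translation, 0.65. *Adar*, which edits adenosine in double-stranded RNA, and *Zbp1*, which senses left-handed nucleic acid, were 0.76 and 0.92 higher.

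Of 14 antiviral effectors 12 were separated, led by *Ifi27* (difference 2.31), *Mx2* (2.27), *Ifi44* (1.86), *Mx1* (1.86) and *Herc6* (1.84). *Ifi27* read 7.23 to 7.56 at F20 and 9.43, 9.56, 10.5 and 9.15 at F22. *Mx2*, a GTPase that blocks viral replication, read 5.75 to 6.62 at F20 and 8.33, 7.36, 10.6 and 7.61 at F22. *Isg15*, the ubiquitin-like protein that is attached to others during the response, read 6.15 to 6.40 at F20 and 7.54, 6.83, 9.07 and 7.13 at F22. In all 3 the F22 groups lay above F20 without overlap, and again replicate 3 stood out. *Bst2*, which tethers viral particles to the membrane, and *Rsad2*, the enzyme viperin, had evener F22 arrays, from 7.20 to 7.58 and from 9.58 to 10.3, and were 1.26 and 0.70 higher than at F20. *Parp9* overlapped by its replicate 2 (8.55 against a highest F20 value of 8.55).

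*Ifit1*, which binds the end of viral RNA, was the exception to the pattern and in liver read either low or high. Its 4 liver arrays were at 8.90, 4.94, 5.001 and 7.66 at F16, at 9.35, 9.47, 4.97 and 5.01 at F20 and at 5.16, 7.83, 7.97 and 5.09 at P1. At F22 all 4 read 5.11 to 5.38, at P4 4.63 to 5.35 and at P90 4.52 to 4.86. Its F22 minus F20 difference of -2.001 was therefore set by 2 of the 4 F20 arrays, and the groups overlapped. In muscle it also read low on some arrays and high on others of a group, for instance 5.24, 7.86, 7.50, 7.64 and 5.51 at F18. *Ifit2* and *Ifit3*, its neighbours and relatives, did not show this and were 1.29 and 1.15 higher in liver at F22 than at F20.

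The 5 interferon-inducible GTPases were all separated, with a median difference of 1.35, and their F22 arrays were closer to each other than those of the sensors. *Ifi47*, of the immunity-related GTPases that attack vacuoles of intracellular microbes, read 8.73 to 8.87 at F20 and 11.1, 10.8, 11.1 and 10.6 at F22. *Gbp5*, a guanylate-binding protein, read 6.35 to 6.61 at F20 and 7.77, 7.87, 7.84 and 7.96 at F22. The spread between these F22 arrays was small against their distance from F20, and the SD was 0.26 for *Ifi47* and 0.08 for *Gbp5*.

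Antigen processing genes and chemokines had the smallest differences, with medians of 0.32 and 0.30, and 3 of 5 and 1 of 3 genes were separated. *Psmb9*, a catalytic subunit of the immunoproteasome, read 7.57 to 7.75 at F20 and 8.05, 8.04, 8.38 and 8.15 at F22. *B2m*, the light chain of MHC class I, was 0.47 higher and *Psmb8* 0.32. The 2 chains of the peptide transporter were among the overlapping genes: *Tap2* differed by 0.00, and *Tap1* read 8.48 to 8.69 at F20 and 8.28, 8.17, 8.77 and 8.34 at F22, with overlap. Of the chemokines, ligands of the lymphocyte receptor CXCR3, *Cxcl10* was separated (6.53 to 7.15 at F20 and 7.47, 7.68, 8.49 and 8.38 at F22), while *Cxcl9* and *Cxcl11* overlapped with differences of 0.27 and 0.30.

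**Figure D2:**
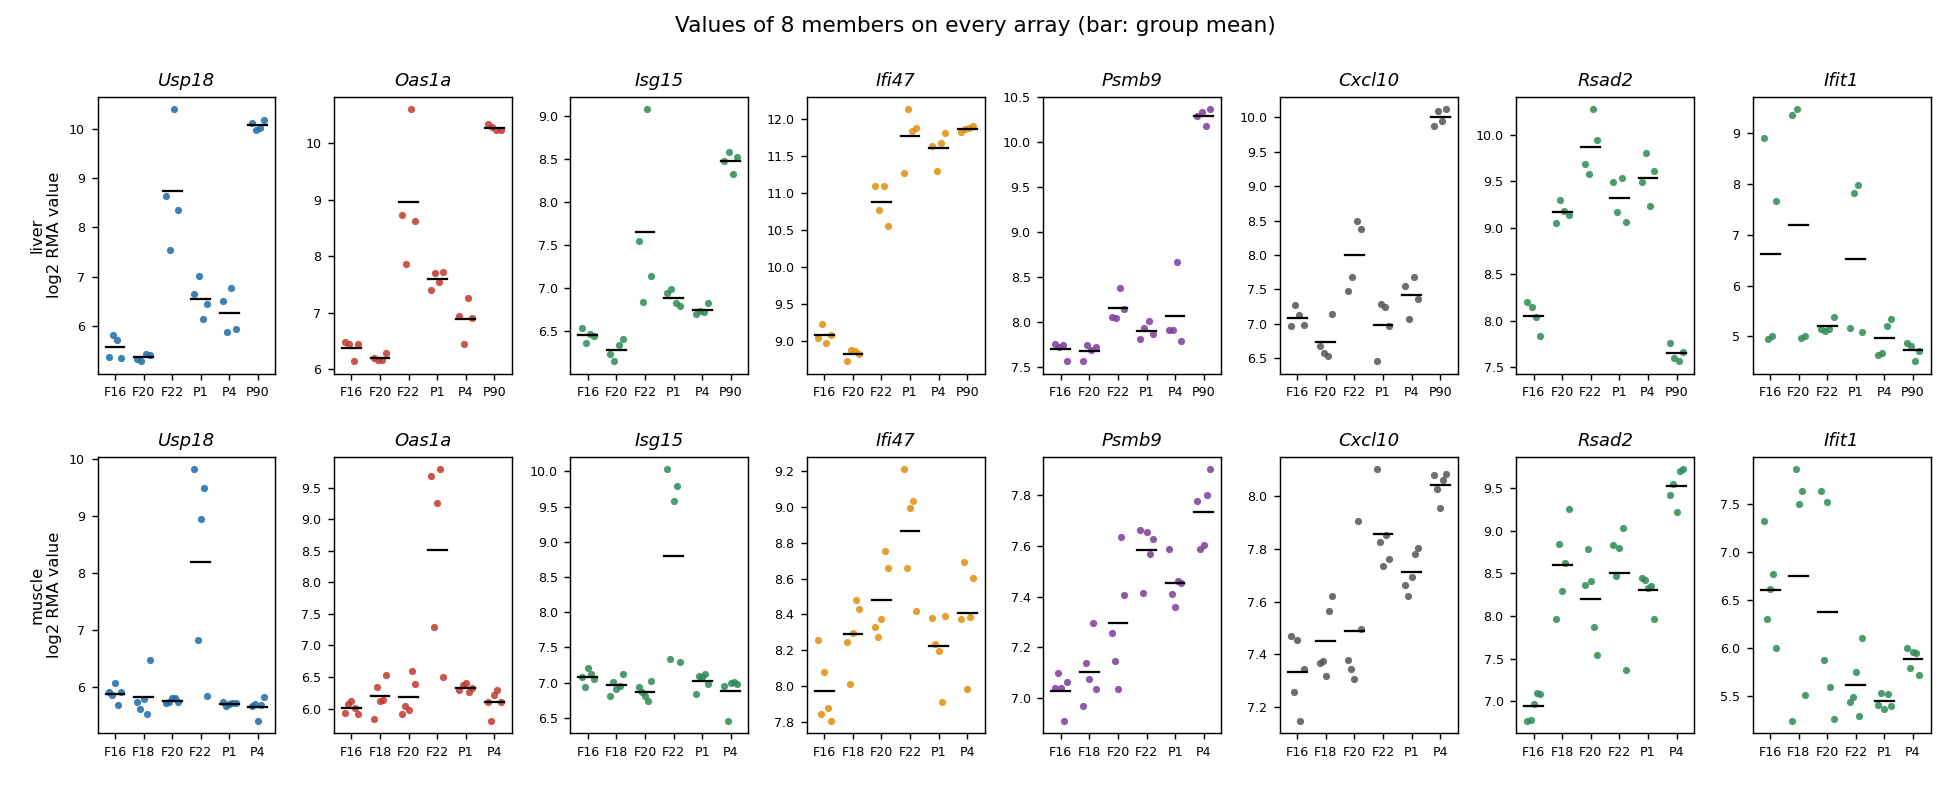
Log2 RMA values of 8 genes (columns) on every liver (top) and muscle (bottom) array, by time point, with dots for single arrays in replicate order and a bar for the group mean. *Usp18*, *Oas1a* and *Isg15* are low at all other foetal time points and spread widely at F22 in both tissues. *Psmb9* and *Cxcl10* reach their highest liver level at P90 and *Rsad2* has its lowest there. In liver *Ifit1* reads either low or high on single arrays.

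In muscle the same genes were higher at F22 on some arrays and near the F20 level on others. The mean was higher at F22 in 41 of 43 genes with a median difference of 0.57 (-0.01 over all probe sets), and in 17 genes all 5 F22 arrays lay above all 5 F20 arrays. The background was 3.79% of probe sets higher and 10.4% lower, and none of the 43 was separated downwards. F22 replicate 5, the muscle array with the lowest mean r, decided this count: without it 31 genes were separated (5.64% of all probe sets). Without the 4 muscle arrays of lowest mean r 38 were (13.9%). Of the markers, 6 of 10 for skeletal muscle (median 0.53), 4 of 12 for macrophages and 3 of 10 for granulocytes were separated upwards. Of the dividing cell markers 5 of 9 were separated downwards (-0.28). The part of these lists was not tested. The arrays of *Usp18* read 5.71 to 5.81 at F20 and 9.82, 6.82, 8.95, 9.50 and 5.84 at F22. Replicates 1, 3 and 4 were thus far above F20, replicate 2 was a little above and replicate 5 lay next to it.

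The other leading genes of muscle had the same arrays at the low end. *Oas1a* read 5.92 to 6.60 at F20 and 9.68, 7.29, 9.26, 9.79 and 6.50 at F22, *Oas1b* 5.62 to 5.94 and then 8.56, 7.43, 8.18, 8.04 and 6.01. *Isg15* read 6.73 to 7.02 at F20 and 10.03, 7.33, 9.58, 9.79 and 7.29 at F22. *Mx2* read 6.61 to 6.90 at F20 and 9.56, 7.07, 8.56, 9.13 and 6.77 at F22. Replicates 2 and 5 were the lowest F22 arrays in all 4 genes, and the groups overlapped for *Oas1a* and *Mx2*. *Bst2* differed by 1.40 and read 8.60, 7.38, 8.62, 8.74 and 7.60 at F22, above its F20 range of 6.70 to 6.89 on every array. *Ifi27* was at 9.05 to 9.32 at F20 and at 10.7, 9.86, 10.6, 10.8 and 9.69 at F22.

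The other roles differed less in muscle. *Ifi47* read 8.27 to 8.75 at F20 and 9.21, 8.66, 8.99, 9.03 and 8.42 at F22, and *Psmb9* 7.04 to 7.63 and then 7.66, 7.41, 7.65, 7.57 and 7.63, both with overlap. *Cxcl10* was at 7.31 to 7.91 at F20 and at 8.10, 7.82, 7.74, 7.85 and 7.76 at F22. Of the 5 antigen processing genes only *Tap1* was separated, with a difference of 0.55, and of the 3 chemokines none. *Cxcl11* read 5.68 to 6.13 at F20 and 5.79 to 5.94 at F22, with a difference of -0.09, and *Ifit1* had the lowest value, -0.76. Both tissues had all F22 arrays above all F20 arrays in 15 of the 43 genes, and in 27 the highest mean of the time points from F16 to P4 fell on F22 in both. The matching shares of all probe sets were not worked out. As F22 values chose the list, nothing is read from these counts.

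**Figure D3:**
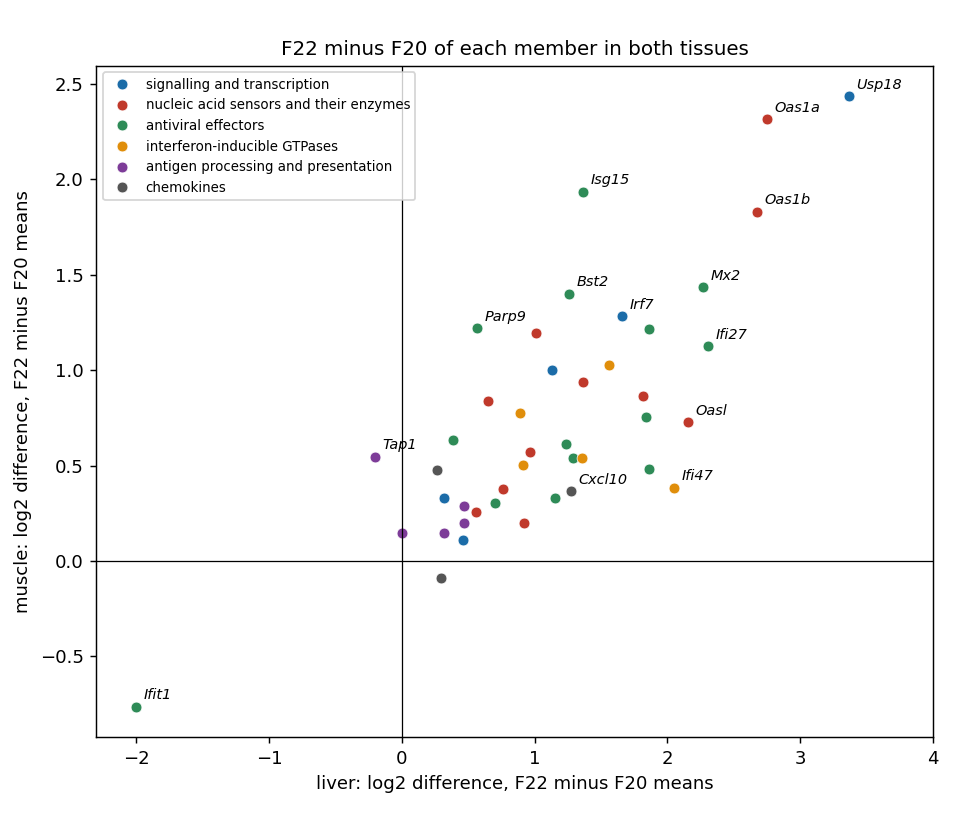
Log2 difference of the F22 and F20 means of each of the 43 genes in liver (horizontal) and in muscle (vertical), coloured by role. *Usp18* and *Oas1a* have the highest difference in both tissues, antigen processing genes lie at or below 0.55 in both, and *Ifit1* is at -2.001 and -0.76.

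The spread between F22 arrays is given as a description, since F22 values chose the list. A gene whose F22 mean was raised by a single high array may have been chosen for it and also has a high SD. The comparisons with other groups and with all probe sets are therefore not free of the choice, and nothing is read from them beyond their size. The median SD over the 4 liver arrays was 0.39 at F22, against 0.11 at F16 and at F20, 0.26 at P1, 0.21 at P4 and 0.07 at P90, while the median SD of all probe sets at F22 was 0.10. In muscle it was 0.35 at F22, against 0.13 at F16, 0.13 at F18, 0.14 at F20, 0.09 at P1 and 0.13 at P4. For 27 genes in liver and 33 in muscle the SD was highest at F22 among the 6 groups of the tissue, which held for 12.8% and 18.5% of all probe sets. Without liver replicate 3 the median SD at F22 was 0.16, and without muscle replicate 5 it was 0.23. Out of all 15310 probe sets, the 100 most variable at F22 held 14 of the 43 genes in liver and 10 in muscle.

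The spread at F22 is also given by role, and nothing is read from its order. In liver the median SD at F22 was 0.70 for sensors, 0.59 for effectors and 0.47 for signalling genes. It was 0.26 for chemokines, 0.19 for GTPases and 0.07 for antigen processing. Single genes of a role differed widely, from 0.09 to 1.20 for signalling genes and from 0.08 to 0.39 for GTPases. The highest SD was 1.46, in *Mx2*. In muscle the median was 0.55, 0.52 and 0.44 for the first 3 roles, 0.14 for chemokines, 0.32 for GTPases and 0.13 for antigen processing. The highest SD there was 1.76, in *Usp18*. The same arrays were high or low for most of the genes. Liver replicate 3 was the highest of the 4 for 37 genes and replicate 2 the lowest for 31. In muscle replicate 1 was the highest for 26 and replicate 5 the lowest for 32. The matching shares of all probe sets were not worked out, and nothing is read from these counts. The mean over the 43 genes was 8.26, 7.97, 9.01 and 8.14 on the liver F22 arrays and 8.59, 7.81, 8.34, 8.46 and 7.55 on those of muscle, against 7.10 to 7.33 and 7.37 to 7.47 at F20. Whether a liver and a muscle array came from the same foetus cannot be read from the labels.

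Of the cell type markers on the F22 arrays, those of erythroid cells had the same highest and lowest array as the interferon genes in liver, and the lists of other blood cells did not. On liver replicates 1 to 4 the mean of 12 macrophage markers was 9.58, 9.49, 9.46 and 9.37, that of 11 T and NK cell markers 6.79, 6.90, 6.72 and 6.87, and that of 8 plasmacytoid dendritic cell markers 6.997, 6.98, 6.90 and 7.03. Granulocyte markers were at 9.92 to 10.5 and lowest on replicate 3. Replicate 3, the highest array of the interferon genes, was the lowest in the T and NK cell, B cell, plasmacytoid, granulocyte and hepatocyte lists, and the highest in erythroid markers (11.8 against 11.5 to 11.6) and in dividing cell markers. In muscle replicate 5, the lowest array of the interferon genes, was also the lowest in erythroid (8.31 against 9.32 to 9.58), dividing cell (10.2 against 10.6), fibroblast and keratinocyte markers, and not in macrophage markers (8.61, within 8.46 to 8.62). The part of these lists in the spread was not tested.

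**Figure D4:**
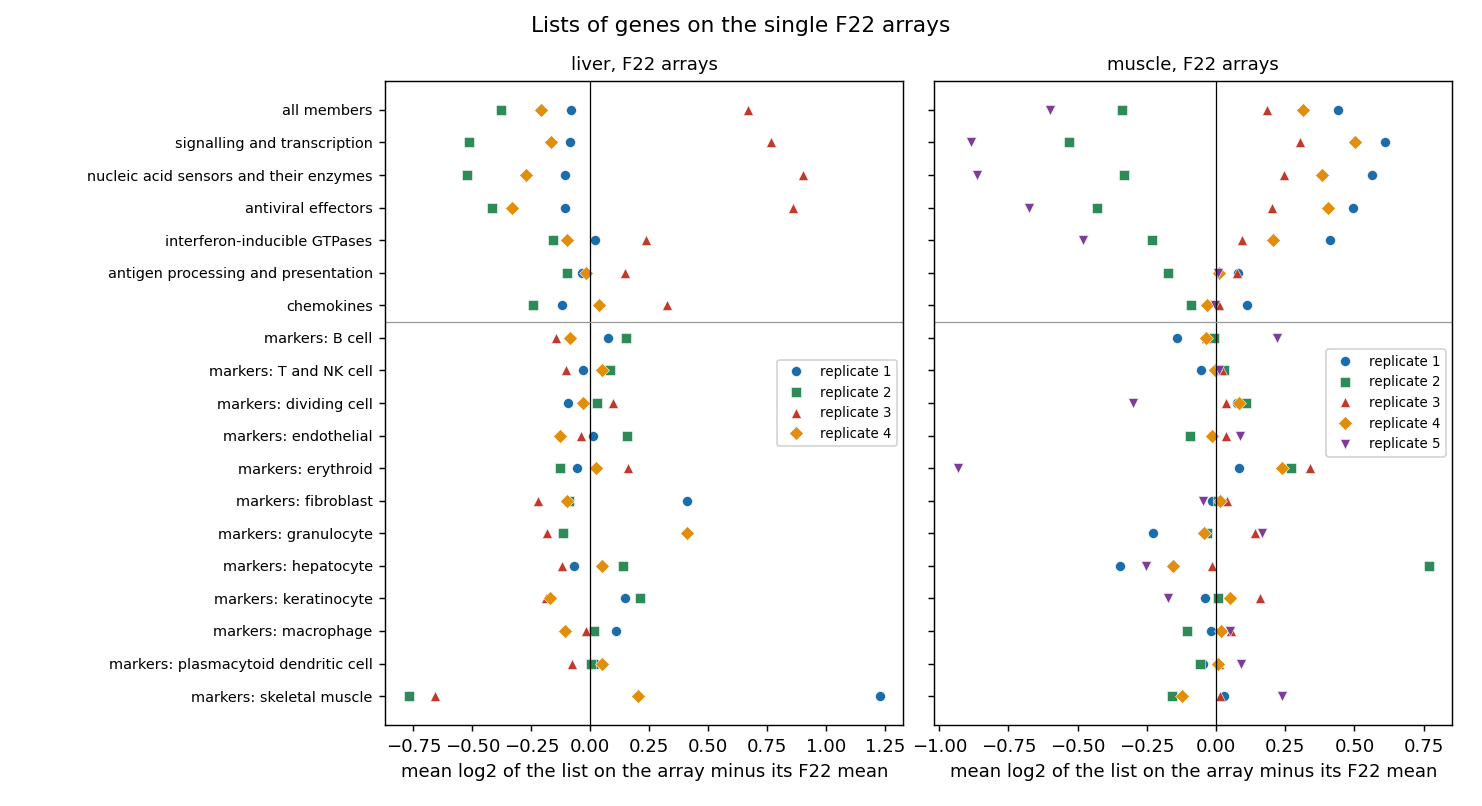
Mean log2 value of each list of genes on the single F22 arrays of liver (4, left) and muscle (5, right), as the difference from the mean of the F22 arrays, with a symbol for each replicate. In the top rows the interferon response genes by role run from replicate 2 to replicate 3 in liver and, except in antigen processing and chemokines, from replicate 5 to replicate 1 in muscle, and of the marker lists below only the erythroid one in liver has the same lowest and highest array.

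From F22 to P1 the level in liver was lower for most genes. The 4 P1 arrays lay below the 4 F22 arrays in 16 genes, where 18.1% of all probe sets did so, and above them only in *Ifi47* (background 11.7%). On P1 replicate 1, the liver array of lowest mean r, *Ifih1* read 10.7 and *Oas1b* 7.06, above their lowest F22 values (9.34 and 6.86). The other P1 arrays read at most 8.34 and 6.66 for these genes. *Irf1* read 7.33 on P1 replicate 1 and 8.22 to 8.60 on the others, against 7.98 to 8.21 at F22. The counts without P1 replicate 1 were not worked out. The median difference was -0.59 over the 43 genes, 0.00 over all probe sets, and -0.34 without F22 replicate 3. *Usp18* had 6.64, 7.01, 6.13 and 6.44 at P1, *Oas1a* 7.41, 7.69, 7.54 and 7.72 and *Cxcl10* 6.46, 7.29, 7.24 and 6.96, each below its F22 arrays. *Ifi47* had 11.3, 12.1, 11.8 and 11.9, above its F22 arrays. In muscle the P1 arrays lay below F22 in 10 genes (6.23% of all probe sets), a number that was 24 without F22 replicate 5 (12.2%), and above F22 in none (7.69%). The median difference in muscle was -0.35, and -0.56 without that array. *Usp18* read 5.66 to 5.73 on the 5 muscle P1 arrays, *Isg15* 6.83 to 7.12 and *Oas1a* 6.26 to 6.40, each overlapping its F20 arrays. In liver 9 of 10 erythroid markers (median difference -0.72) and 9 of 9 dividing cell markers (-1.02) also had all P1 arrays below all F22 arrays, against 0 of 10 and 2 of 9 in muscle, and their part was not tested.

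The contrasts without F22 arrays were tested with limma over all 15310 probe sets, in a fit whose shared error also held the F22 arrays. The list was chosen by F22 values with earlier results known, and a gene high at F22 may have been picked partly for a low F20. Contrasts that start at F20 share this baseline, so that their p-values are not free of the choice. Between F16 and F20 in liver 4 of 43 genes rose and 0 fell at an adjusted p of at most 0.05, where 9.22% of all probe sets rose and 13.2% fell. *Rsad2* rose by 1.11 ± 0.14 (log2 change ± SE, n = 4 arrays per group, limma adjusted p = 2.04e-06), *Stat2* by 0.79 ± 0.08 (limma adjusted p = 5.72e-08), *Cxcl11* by 0.90 ± 0.27 and *Igtp* by 0.62 ± 0.13. For *Cxcl11* (limma adjusted p = 0.0182) the call was lost without F16 replicate 4 or F20 replicate 2, where the change was 0.84 and 0.85. None of the 11 sensors passed, and the median change of the 43 genes was 0.06. The shared error held the F22 arrays, where the median SD of the 43 genes was 0.39, against 0.11 at F16 and at F20. With only the F16 and F20 arrays in the fit more genes were called, as given in the closing section, so that a gene not called here is not shown to be unchanged. Markers of macrophages (12 of 12 rose, median change 0.99) and of granulocytes (9 of 10, 1.23) moved in the same contrast, and their part was not tested.

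In muscle the earliest contrast was that of F16 and F18. Between F16 and F18 9 genes rose (14.1% of all probe sets) and *Cxcl11* fell (19.3%), and *Rsad2* again changed most, by 1.66 ± 0.25 from 6.94 to 8.60 (limma adjusted p = 5.76e-06, n = 5 arrays per group). *Samd9l* rose by 0.69 ± 0.13, *Ifi27* by 0.57 ± 0.15 and *Ifih1* by 0.65 ± 0.23, the latter with a limma adjusted p of 0.0323 that was lost without F16 replicate 2 or 3 or F18 replicate 4 or 5 (changes of 0.56 to 0.63). *Cxcl11* changed by -0.20 ± 0.08, a call lost on leaving out any of 7 of the 10 arrays. F18 replicate 5 read above its group in *Usp18* (6.47 against 5.51 to 5.78), *Mx2* (7.84 against 6.70 to 7.13) and *Oas1b* (6.49 against 5.72 to 5.997). From F16 to F18 6 of 12 macrophage, 6 of 10 granulocyte and 7 of 8 endothelial markers rose as well. Keratinocyte markers moved most (4 of 4 rose, median change 2.20), and 5 of 8 fibroblast (0.70) and 7 of 10 skeletal muscle markers (0.68) rose. Of the dividing cell markers 4 of 9 fell (-0.18). The part of these lists was not tested. Between F18 and F20 only *Cxcl9* rose, by 0.87 ± 0.16 (14.6% of all probe sets), and only *Adar* fell (15.9%), with a change of -0.27 ± 0.10. The *Adar* call was lost without F20 replicate 4 or 5 or F18 replicate 4 or 5. The genes called, 2 in all, numbered 4 without F20 replicate 2, and 1 without F20 replicate 4 or 5 or F18 replicate 5. In this contrast 9 of 10 skeletal muscle (median change 0.78), 7 of 12 macrophage (0.41) and 3 of 4 keratinocyte markers (0.61) rose. Of the endothelial and of the fibroblast markers 4 of 8 each rose, and 1 fibroblast and 3 of 10 granulocyte markers fell. The part of these lists was not tested.

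After birth the liver level of P4 was set against that of F20, with F22 left aside. By this test 20 genes rose (24.3% of all probe sets) and 1 fell (30.3%), with a median change of 0.46 against 0.02 over all probe sets. All 5 GTPases rose: *Ifi47* by 2.78 ± 0.14 (8.82 to 11.6, limma adjusted p = 1.09e-13), *Irgm* by 1.31 ± 0.19 and *Gbp5* by 1.17 ± 0.16 among them. *Ifi27* rose by 1.56 ± 0.33, on P4 arrays that read 7.75, 8.70, 9.80 and 9.45. *Usp18*, at 6.51, 5.87, 6.76 and 5.93, rose by 0.90 ± 0.35 (limma adjusted p = 0.0349), a call that was lost without P4 replicate 1 or 3 or any single F20 array (changes of 0.74 to 0.92). Of the 11 sensors 2 passed. *Oas1a*, with 6.95, 6.44, 7.25 and 6.90 at P4, had a change of 0.68 ± 0.32 that did not pass (limma adjusted p = 0.0783) but passed without P4 replicate 2 (0.83), and *Isg15* had one of 0.46 ± 0.27 (limma adjusted p = 0.152). In all 3 genes the P4 arrays lay above the F20 arrays, and all 3 passed with the F22 arrays left out of the fit, where 30 of the 43 genes passed in all. *Tap1* fell by 0.53 ± 0.11 (limma adjusted p = 0.000144). Granulocyte markers averaged 8.46 at F20 and 10.02 at P4, macrophage markers 8.62 and 9.51 and hepatocyte markers 12.2 and 13.1. All 8 endothelial markers rose (median change 0.72), while all 10 erythroid (-0.98) and all 9 dividing cell markers (-1.31) fell. The part of these lists in the changes was not tested.

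In muscle the same contrast was made. From F20 to P4 18 genes rose (22.2% of all probe sets) and 1 fell (25.0%), with a median of 0.15 against 0.00 over all probe sets. All 5 antigen processing genes rose, led by *Tap1* (1.00 ± 0.07, limma adjusted p = 3.09e-12), and so did *Rsad2* (1.33 ± 0.25), *Bst2* (0.69 ± 0.17) and *Cxcl9* (0.68 ± 0.16). None of the 11 sensors passed in either direction. *Usp18* read 5.40 to 5.82 at P4, *Isg15* 6.46 to 7.002 and *Oas1a* 5.81 to 6.29, each overlapping its F20 arrays. *Stat2* fell by 0.29 ± 0.08 (limma adjusted p = 0.0033). Of the markers, those of granulocytes (9 of 10 rose, median change 1.89), B cells (4 of 4, 0.95) and erythroid cells (8 of 10, 1.24) moved in the same contrast, as did 6 of 12 macrophage markers (0.17), and their part was not tested.

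Within the first postnatal days few of the liver values passed. From P1 to P4 2 genes rose (4.87% of all probe sets), *Cxcl9* by 0.74 ± 0.14 (limma adjusted p = 0.00118) and *B2m* by 0.25 ± 0.07, and 3 fell (6.10%), *Bst2* by 0.73 ± 0.15, *Irf9* by 0.46 ± 0.15 and *Oas2* by 0.35 ± 0.11. The number of calls was 3 without P1 replicate 4 or without P4 replicate 2, 3 or 4. The calls of *Irf9* and *Oas2* were each lost on leaving out any of 6 of the 8 arrays, and that of *B2m* without P4 replicate 3 (0.18). That array was the highest of its group in *Gbp2* (8.62 against 7.14 to 7.26), *Gbp5*, *Psmb9* and *B2m*. It was also the highest in macrophage markers (10.04 against 9.31 to 9.36), whose part was not tested. P1 replicate 1 read 10.7 for *Ifih1*, where the other 3 arrays read 8.03 to 8.34, and 5.92 for *Cxcl11*, where they read 7.65 to 7.72.

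In muscle from P1 to P4 8 genes rose (19.2% of all probe sets) and 4 fell (14.7%). *Rsad2* rose by 1.23 ± 0.25 (8.30 to 9.53, limma adjusted p = 0.000272), *Tap1* by 0.55 ± 0.07, *Trim21*, the cytosolic antibody receptor, by 0.41 ± 0.10 and *Psmb8* by 0.36 ± 0.07. *Ifit2* fell by 0.44 ± 0.12, *Eif2ak2* by 0.41 ± 0.14, *Gbp5* by 0.34 ± 0.10 and *Stat2* by 0.29 ± 0.08. The *Eif2ak2* call (limma adjusted p = 0.0233) was lost without P1 replicate 1 or P4 replicate 4 or 5, with changes of -0.38. Granulocyte markers averaged 8.93 in muscle at P4 and 7.23 at P1, B cell markers 7.91 and 7.001, and erythroid markers 10.7 and 9.11, and their part in these changes was not tested.

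Adult liver held the highest level of most of the genes. The highest of the 6 group means fell on P90 for 37 of 43 genes, on F22 for 5 and on F20 for 1. When P90 was set aside F22 was the highest for 34. The matching shares of all probe sets were not worked out for these counts. From P4 to P90 40 genes rose (28.8% of all probe sets) and 1 fell (27.1%), with a median change of 1.32 against 0.06 over all probe sets. *Usp18* rose by 3.80 ± 0.35 (limma adjusted p = 3.31e-09), *Oas1a* by 3.39 ± 0.32, *Mx2* by 3.34 ± 0.43 and *Cxcl9* by 3.31 ± 0.14. From F20 to P90 41 rose (41.0%) and 2 fell (33.4%), with a median of 2.10 against 0.11. Here *Usp18* rose by 4.70 ± 0.35 (limma adjusted p = 3.01e-11), *Cxcl9* by 4.30 ± 0.14, *Oas1a* by 4.07 ± 0.32 and *Herc6*, an ISG15 ligase in rodents, by 3.94 ± 0.23.

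*Rsad2* ran against the others and had its lowest liver level in the adult. Its 4 P90 arrays read 7.57 to 7.77, below the 9.05 to 9.30 of F20 and the 9.23 to 9.81 of P4, and it fell by 1.52 ± 0.14 from F20 (limma adjusted p = 6.1e-10) and fell by 1.89 ± 0.14 from P4. *Ifit1* fell by 2.47 ± 0.95 from F20 to P90 (limma adjusted p = 0.0225). That call was lost without F20 replicate 1 (-1.76) or replicate 2 (-1.72), the 2 F20 arrays on which *Ifit1* read high.

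The adult arrays were close to each other in nearly all genes. *Usp18* read 10.1, 9.98, 10.02 and 10.2, *Oas1a* 10.3, 10.3, 10.2 and 10.2 and *Oas1b* 7.75, 7.80, 7.81 and 7.72, and the SD over the 4 arrays was 0.09, 0.05 and 0.04. *Mx2* read 9.97, 10.02, 9.82 and 10.01, *Ifi27* 11.04, 11.07, 10.99 and 10.98, and *Oasl* 8.91, 8.86, 8.86 and 8.88. On the F22 arrays the SD of *Usp18*, *Oas1a* and *Oas1b* had been 1.20, 1.16 and 1.13. In the adult the markers of blood formation were low, with erythroid markers at 7.12 (11.6 at F22), granulocyte markers at 6.97 (10.1) and dividing cell markers at 6.50 (10.3), while macrophage markers were at 9.58 (9.47) and hepatocyte markers at 13.1 (12.8). The part of this change of cells in the adult values was not tested.

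How the adult level stood to that of F22 depended on the role and on 1 array. The P90 mean was higher than that of F22 in 37 genes, the median difference was 0.83 (0.09 over all probe sets), and the P90 arrays lay above all F22 arrays in 21 genes (36.1% of all probe sets) and below them in 2 (31.2%), *Ifit1* and *Rsad2*. Without F22 replicate 3 the P90 arrays were above in 38 genes (37.9%) and the median was 1.08. On that single array *Usp18* (10.4), *Oas1a* (10.6) and *Mx2* (10.6) read above every adult array, and in 22 genes the highest F22 array exceeded the lowest adult one.

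By role, all 5 GTPases, all 5 antigen processing genes and all 3 chemokines had every adult array above every F22 array, and none of the 11 sensors did. Without F22 replicate 3 all sensors but *Oas1b*, *Oas2* and *Oasl2* did, so that this difference between roles rested largely on that array. *Oas1a* read 10.6 there and 7.86 to 8.72 on the other F22 arrays, against 10.2 to 10.3 at P90. *Cxcl9* read 5.64 to 6.21 at F22 and 9.89 to 10.1 at P90, and *Cxcl10* 7.47 to 8.49 and then 9.88 to 10.1. *Psmb9* read 8.04 to 8.38 at F22 and 10.2 to 10.4 at P90, and *Ifi47* 10.6 to 11.1 and then 11.8 to 11.9. Of the sensors *Oas1b*, *Oas2*, *Oasl* and *Oasl2* had the higher mean at F22, with P90 minus F22 differences of -0.23 to -0.09. *Tap1*, at 8.94 to 9.07 in the adult, had 8.17 to 8.77 at F22 and 7.78 to 8.05 at P1.

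**Figure D5:**
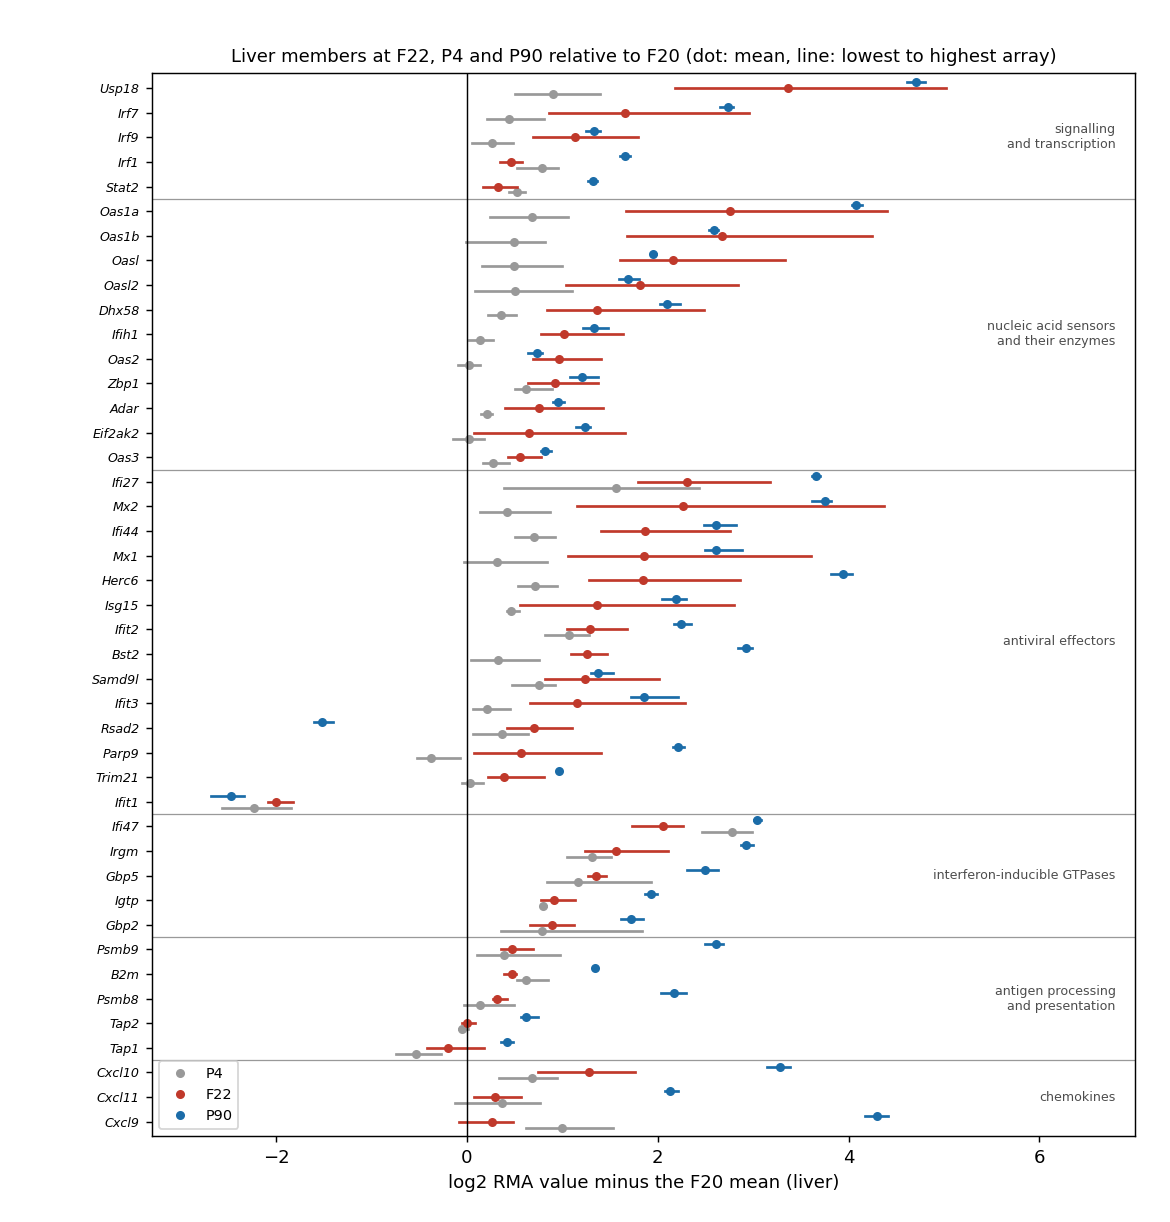
Liver levels of the 43 genes at F22, P4 and P90 as the difference from the F20 mean on the log2 scale, with a dot for the group mean and a line from the lowest to the highest of 4 arrays. The F22 lines are long for signalling, sensor and effector genes and reach the adult level in several of them, whereas in the GTPases, antigen processing genes and chemokines P90 lies to the right of F22 in every row.

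The genes around the response were read from lists of the rest of the pathway. Their counts stand beside the shares of all probe sets in the same contrasts, which were 16.3% separated upwards and 23.1% downwards from F20 to F22 in liver and 3.79% and 10.4% in muscle, 24.3% rising and 30.3% falling from F20 to P4 in liver and 22.2% and 25.0% in muscle, and 41.0% rising and 33.4% falling from F20 to P90 in liver. Of the interferons themselves 5 of 9 listed genes were measured (*Ifna4*, *Ifna5*, *Ifnb1*, *Ifng* and *Ifnk*). The alpha genes are close copies of each other, so that their probe sets are uncertain as single genes. Their F22 minus F20 differences ran from -0.01 to 0.11 in liver, and in muscle from -0.01 to 0.21, with separated arrays only for *Ifna5* in muscle (0.21). In the tested contrasts 0 of 5 rose or fell in liver from F16 to F20, 3 rose from F20 to P4 and 5 from F20 to P90, with the highest change 0.38 ± 0.09 for *Ifnk* (F20 to P4, limma adjusted p = 0.00106). In muscle 1 of 5 passed in 1 of 4 contrasts, *Ifng*, which fell by 0.20 ± 0.07 from P1 to P4.

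Of 8 measured receptors and kinases 5 were separated upwards and 1, *Jak2*, downwards (-0.53) between F20 and F22 in liver, and 0 in muscle. From F20 to P90 5 rose, with *Stat3* at 1.20 ± 0.09 and the interferon gamma receptor chain *Ifngr2* at 0.83 ± 0.08, and 2 fell, *Jak2* by 1.40 ± 0.09. In muscle 6 of 8 rose from F20 to P4, the receptor chain *Il10rb* by 0.55 ± 0.07. Of 8 inhibitors of the pathway 3 were separated upwards and 4 downwards between F20 and F22 in liver (median 0.04), and 1 and 2 in muscle. *Cish*, a suppressor of cytokine signalling, had the highest difference, 1.35 in liver and 0.59 in muscle, and the phosphatase *Ptpn1* the lowest in liver, -0.55. From F20 to P90 4 of the 8 rose and 2 fell, and *Cish* rose by 1.91 ± 0.12 and *Socs3* by 1.78 ± 0.09, while *Pias1* fell by 0.80 ± 0.06.

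Of 11 genes of upstream sensing 6 were separated upwards and 1 downwards in liver between F20 and F22. The toll-like receptors *Tlr7* (1.35) and *Tlr3* (1.11), which sense RNA in endosomes, had the largest differences. From F20 to P90 7 rose and 1 fell, with *Tlr7* at 1.60 ± 0.11 and the adaptor *Myd88* at 1.37 ± 0.09. In muscle the same list had 6 that rose from F20 to P4, *Tlr4* by 0.71 ± 0.10 and *Trim25*, the ligase that acts on RIG-I, by 0.55 ± 0.08. Of 6 other interferon regulatory factors 4 rose and 1 fell from F20 to P90 in liver, *Irf8* by 0.91 ± 0.07 and *Irf3* by 0.81 ± 0.10, and 3 from F20 to P4 in muscle, *Irf2* by 0.53 ± 0.05.

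Of 30 measured genes in a list of further interferon-stimulated genes 22 were separated upwards and 0 downwards between F20 and F22 in liver, with a median of 0.52, and 7 and 0 in muscle with a median of 0.40. *Rtp4* was 2.74 higher in liver and 1.67 higher in muscle, *Ifi44l* 2.20 and 1.17 and *Slfn4* 2.05 and 1.32, of which *Rtp4* and *Ifi44l* overlapped in muscle. From F20 to P90 22 of the 30 rose and 3 fell, led by *Rtp4* (4.89 ± 0.26, limma adjusted p = 3.54e-14) and *Cd74*, the invariant chain of MHC class II (4.06 ± 0.23). In muscle 17 rose and 0 fell from F20 to P4, with *Sp100* at 1.19 ± 0.12. Of 15 MHC class I and II genes 7 and 4 were separated upwards at F22 in liver and muscle, and 14 rose from F20 to P90 in liver (*RT1-N2* by 4.29 ± 0.12, *RT1-Da* by 3.52 ± 0.20). From F20 to P4 12 of them rose in liver and 11 in muscle, and none fell.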

How the data were processed

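Liver and skeletal muscle RNA was read on GeneChip arrays (Rat Gene 1.0 ST), and the authors deposited log2 values, summarised by robust multi-array average separately for each tissue. Affymetrix Expression Console is named in the submitters' processing notes, with no version. The sample titles gave the group and the replicate number of each array. The platform table gave 1 gene symbol to 15310 of 29214 probe sets, several to 323 and none to 13581, and only the first were used. Of the 43 measured genes 42 were matched to a RefSeq gene, with 0 symbols changed.

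The genes and all lists were chosen with earlier results of these data known. Contrasts with F22 arrays were therefore described per array, as counts of genes whose arrays did not overlap between groups, beside the same share of all probe sets. The other contrasts were tested with limma 3.58.1 in R 4.3.3, with the 6 groups of a tissue in 1 fit (lmFit, eBayes), Benjamini-Hochberg adjustment over 15310 probe sets and a threshold of 0.05. The code was tested on simulated data, in which 200 probe sets had been changed. All p-values measure the spread between the arrays, since nothing beyond the words biological replicate describes how the animals were drawn, and the number of arrays limits the precision.

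Per-array values were given, for each tissue, for the 6 genes with the highest and the 2 with the lowest F22 minus F20 difference and for the leading gene of each role in liver. In each tested contrast up to 4 called genes with the highest and up to 4 with the lowest change were named, and up to 4 of each further pathway list. Other genes given per array, and muscle genes of the pathway lists, were chosen after their values were seen. A gene with several probe sets was described by the one with the highest mean. Members of close families (*Ifit*, *Oas1*, *Mx*, *Gbp* and *RT1* genes) may share probe signal. Promoter windows came from a RefSeq table of the GRCr8 assembly. Same-numbered replicates did not deviate together (mean r 0.0017 in liver and -0.0167 in muscle), so that no pairing was used. The alternatives were another threshold, a filter on dim probe sets, a trended prior, a second quantile normalisation, median centring, fewer groups in the fit, weights for the arrays, a block for the replicate number, averaged probe sets and leaving out single arrays.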

Additional observations from a re-analysis of the deposited data

Results flagged for a closer look

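Single arrays far from the rest of their group, by Dixon's criterion, were found in 35 of 528 groups of values, where chance flags about 1 in 20. At P4 in liver replicate 3, the array with the highest macrophage markers, was far above the others in 5 genes: *B2m* 12.935, *Gbp2* 8.615, *Gbp5* 8.437, *Psmb9* 8.664 and *Zbp1* 7.341. At F22 in liver replicate 3 was far above the others in *Ifih1* (10.193), *Ifit3* (8.395) and *Trim21* (8.954), and replicate 4 in *Ifit1* (5.376). At P1 in liver replicate 1 was apart in *Ifih1* (10.667), *Cxcl11* (5.921) and *Oasl* (8.221), replicate 2 in *Mx1* (7.354) and replicate 4 in *Oas3* (7.071). The remaining liver values were *Oas1a* at F16 (6.144, replicate 3), *Ifit3* (6.245, replicate 1), *Oas3* (6.703, replicate 2) and *Trim21* (8.06, replicate 3) at F20, and *Ifit3* (8.315, replicate 4), *Samd9l* (8.34, replicate 4) and *Tap2* (7.788, replicate 2) at P90.

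In muscle F18 replicate 5 was high in *Usp18* (6.467), *Ifi44* (7.743) and *Oasl2* (7.407). Replicate 5 was also the array apart in *Oasl* at F16 (7.362), *Irf7* at F20 (7.735), *Ifit3* at F22 (6.355) and *Rsad2* (7.96) and *Tap1* (8.028) at P1. The other muscle values were *Gbp2* (7.268, replicate 1), *Ifi27* (7.995, replicate 2) and *Irf1* (7.801, replicate 2) at F16, and *Isg15* (6.455, replicate 2), *Mx2* (6.248, replicate 1) and the mean of the 43 genes (7.679, replicate 2) at P4.

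In 4 cases every array of one tissue moved one way and every array of the other the opposite way, and the difference between the tissues was not tested. From F22 to P1 *Ifi47* differed by 0.90 in liver and -0.64 in muscle. From F20 to P4 *Parp9* differed by -0.38 and 0.56, *Tap1* by -0.53 and 1.00 and *Stat2* by 0.53 and -0.29.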

How the results depend on the processing

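No contrast changed direction under any alternative that was run. With only probe sets above the median signal, which leaves fewer of the genes to be tested, the genes called were 2 for liver F16 to F20 (4 in the text), 9 for F20 to P4 (21), 2 for P1 to P4 (5), 15 for P4 to P90 (41) and 16 for F20 to P90 (43), in muscle 1 for F16 to F18 (10), 3 for F20 to P4 (19) and 3 for P1 to P4 (12), and the median liver F22 minus F20 difference was 0.61 (1.13). Liver P1 to P4 (5 called) and muscle F18 to F20 (2 called) were the least stable counts. With an unadjusted p of at most 0.05 they were 8 and 6, with array weights 2 and 5, and with the F22 arrays not in the fit, an alternative chosen after seeing the data, 8 and 4. With only the 2 groups in the fit they were 2 and 4, and liver F16 to F20 had 10. Liver P1 to P4 had 3 with each array centred on its median and with 5 time points in the fit. With the replicate block liver P1 to P4 had 3 and muscle F18 to F20 had 1, and the block moved no other count of calls by over 1.5 times. The cause of these differences was not tested. Without the 4 muscle arrays of lowest mean r, also chosen after seeing the data, muscle F18 to F20 had 1 call. In that setting 38 genes (17 in the text) were separated from F20 to F22 and 24 (10) from F22 to P1.

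Leaving out single arrays gave 3 to 5 calls for liver P1 to P4 and 1 to 4 for muscle F18 to F20. The median SD at F22 ranged from 0.164 (without replicate 3) to 0.437 in liver and from 0.234 (without replicate 5) to 0.408 in muscle. For the counts of separated genes only F22 arrays were left out. The separated genes numbered 21 to 38 for liver F22 to P90 (38 without F22 replicate 3), 17 to 31 for muscle F20 to F22 and 10 to 24 for muscle F22 to P1 (31 and 24 without F22 replicate 5). The other counts and medians moved by less than 1.5 times, while the median F22 to P1 difference moved by more, from -0.59 to -0.34 in liver without F22 replicate 3 and from -0.35 to -0.56 in muscle without F22 replicate 5. With 4 or 5 arrays in a group, of which 1 can carry a mean at F22, the F22 levels are the least precise.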
